A study of Danio rerio with 37 samples.

Results

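Wnt ligands, their receptors and the proteins that carry the signal to the nucleus were followed through 37 libraries of RNA from whole zebrafish embryos at 6 hours post fertilization (6 hpf), when gastrulation begins. A gene was a member if its symbol began with wnt and a number, fzd, dvl, axin, tcf7 or ctnnb, or was lef1, lrp5 or lrp6, with letter case ignored. By that rule, which reads names and no measured value, 56 of the 32520 genes in the tables were members. They were 24 Wnt ligands, 16 receptors, 5 Dishevelled genes, 2 Axin genes, 4 genes named for beta-catenin and 5 nuclear factors. Of the 56, 6 carry symbols in capitals (WNT6, WNT7A, WNT7B, FZD9, DVL1 and DVL3).

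Wnt proteins are secreted lipid-modified signals that bind Frizzled receptors, alone or together with the co-receptors Lrp5 and Lrp6. In the canonical branch, Dishevelled and Lrp5/6 draw Axin to the membrane and take apart the complex that destroys beta-catenin, which then enters the nucleus and acts with Tcf and Lef factors on target genes. In the noncanonical branch, ligands such as Wnt11 and Wnt5b act through Frizzled and Dishevelled on cell polarity and on the convergence and extension movements of gastrulation. In the early zebrafish embryo maternal beta-catenin sets up the dorsal organizer, and zygotic Wnt8 at the blastula margin then promotes ventral and posterior fates.

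The titles of the libraries name an RNA-targeting CRISPR effector (RfxCas13d, DjCas13d or Cas7-11), a GFP dose of 10 pg or 50 pg, and a knockdown or control arm. All 3 effectors are RNA-guided enzymes that cut RNA and not DNA, and a GFP dose stands in the titles of both arms. RfxCas13d had 2 knockdown and 3 control libraries at 10 pg and 3 of each at 50 pg, DjCas13d had 3 of each at both doses, and Cas7-11 had 4 of each at 10 pg and 3 of each at 50 pg. The labels give no strain, no number of embryos per library, no guide and no account of what control embryos received, and the design text speaks of primary miR-430 and maternal mRNA clearance whereas the titles name GFP alone. The labels do not say whether the libraries of a group are from different clutches, and the p-values below reflect only how these libraries vary, which may be technical.

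GFP, the gene in the titles, was lower in the knockdown libraries than in the control libraries of every effector and dose. It had 4.26 to 7.92 TPM (a length-corrected share of all transcripts in a library) in RfxCas13d knockdown and 676 to 4464 TPM in control at 10 pg, and 121 to 446 TPM in knockdown and 4226 to 21930 TPM in control at 50 pg. With DjCas13d, knockdown and control libraries had 4.71 to 31.2 and 3180 to 3665 TPM at 10 pg, and 33.2 to 119 and 7185 to 9962 TPM at 50 pg. With Cas7-11 they had 35 to 70.4 and 224 to 305 TPM at 10 pg, and 223 to 313 and 701.5 to 1329 TPM at 50 pg. GFP levels in controls at the same named dose thus differed between effectors. Gene reads per library numbered 3944559 to 8034012 with RfxCas13d, 5945891 to 7337941 with DjCas13d and 17432069 to 23991611 with Cas7-11. Of the 37 libraries 5 stood apart by malat1, a nuclear noncoding RNA, with more than 5000 CPM (read counts scaled to a common library size): controls 1 and 3 of RfxCas13d at 10 pg, control 1 of RfxCas13d at 50 pg, and knockdowns 1 and 2 of DjCas13d at 10 pg. The main results that rest on these libraries are given with and without them.

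At 6 hpf the pathway was expressed at very unequal levels, from beta-catenin, the most abundant, to most ligands near 0. Over the 19 control libraries 6 members averaged more than 100 TPM and 15 lay between 10 and 100 TPM. At the low end, 20 members that did not pass the filter on low counts, 17 of them ligands, reached no value above 0.69 TPM in any of the 37 libraries and held at most 167 reads over all libraries. That filter left 34 members that could be tested: 5 ligands, 15 receptors, 3 Dishevelled genes, both Axin genes, all 4 catenin genes and all 5 nuclear factors.

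**Figure D1:**
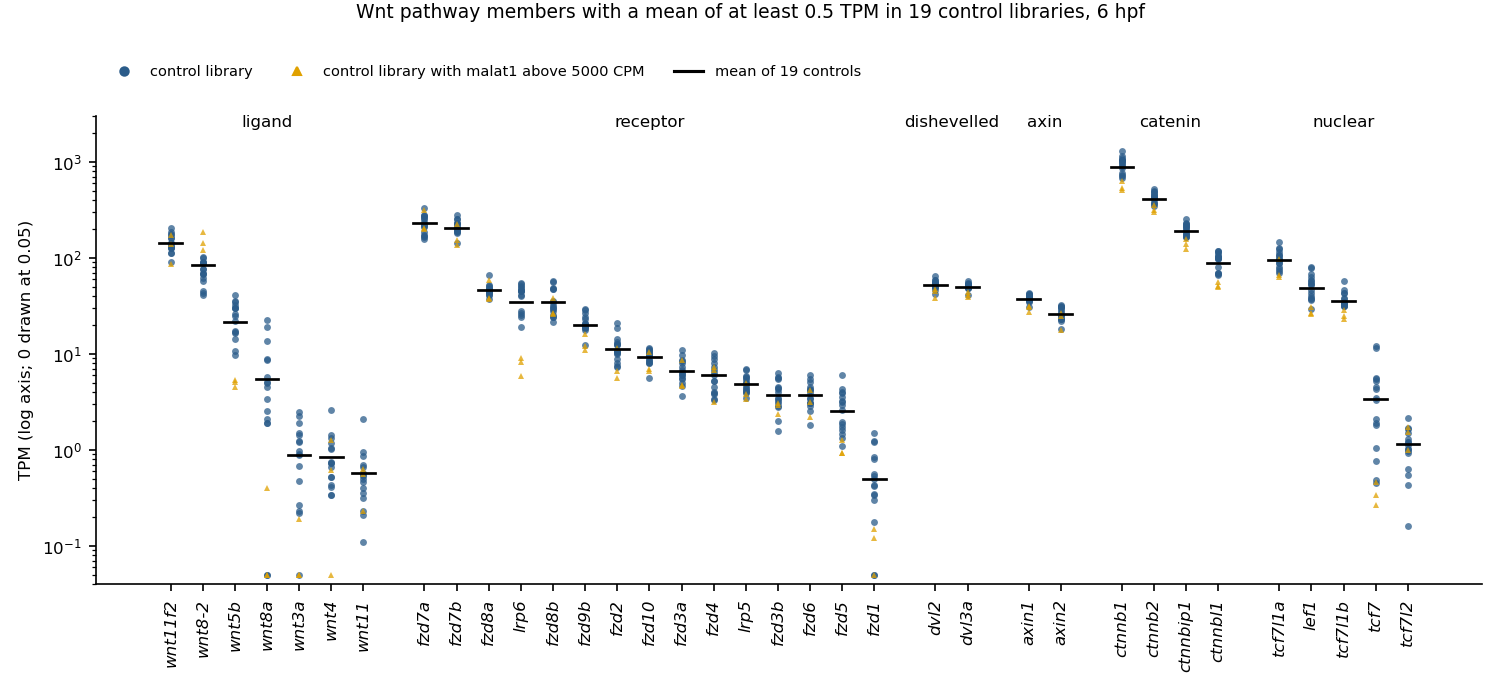
TPM (log axis) of the 35 members that averaged at least 0.5 TPM in the 19 control libraries, grouped by role; each point is a library, triangles are the 3 controls with malat1 above 5000 CPM, and bars are means. ctnnb1, fzd7a and wnt11f2 lead their roles. The triangles lie lowest for wnt5b, lrp6, ctnnb1, ctnnbip1, ctnnbl1 and tcf7l1b and highest for wnt8-2.

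Among the ligands, wnt11f2 (silberblick, required for convergence and extension) was the most abundant, at 143 ± 31.6 TPM (SD, n = 19 controls). The next was wnt8-2 at 85.2 ± 35.7 TPM, then wnt5b (pipetail, a second noncanonical ligand) at 21.4 ± 11.4 TPM and wnt8a at 5.53 ± 6.46 TPM. These 4 ligands made up nearly all ligand RNA, since wnt3a, wnt4 and wnt11 averaged 0.885, 0.839 and 0.576 TPM. The ranges of wnt11f2 (86.6 to 206 TPM) and wnt8-2 (40.9 to 186 TPM) overlapped, so their order rests on the means.

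The entries wnt8a and wnt8-2 are special. Zebrafish wnt8a is known as a locus that makes a pair of Wnt8 proteins from bicistronic RNA, and the entries overlap in the RefSeq annotation. The deposited count tables hold 0 reads for wnt8-2 and 1 read for wnt8a over all 37 libraries, whereas the TPM tables list wnt8-2 above 0 in all 37. Both genes were therefore read in TPM alone, where the split between them is the authors' estimate, and no count test includes them.

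The receptors were led by a pair of paralogs, fzd7a at 229 ± 51.1 TPM and fzd7b at 206 ± 37.8 TPM (n = 19 controls), which overlapped across controls. Frizzled-7 proteins take part in both branches of the pathway in vertebrate embryos. The next receptors were fzd8a at 46.3 ± 7.14 TPM, lrp6 at 35.1 ± 16.1 TPM, fzd8b at 35 ± 11.3 TPM, fzd9b at 19.9 ± 5.04 TPM and fzd2 at 11.2 ± 3.87 TPM. The co-receptor lrp5 averaged 4.83 ± 1.04 TPM, below lrp6 on average. FZD9, the only receptor gene left out of the tests, averaged 0.056 TPM.

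Inside the cell, dvl2 at 51.7 ± 6.34 TPM and dvl3a at 49.7 ± 4.98 TPM were nearly equal, and DVL1, dvl1b and DVL3 averaged 0.151, 0.117 and 0.115 TPM. The scaffold axin1 averaged 37.1 ± 4.41 TPM and axin2, a scaffold that is itself a known target of the pathway, 26.0 ± 4.29 TPM. Beta-catenin itself came from ctnnb1 at 889 ± 218 TPM and ctnnb2, the gene of the ichabod dorsal axis mutant, at 414 ± 62.4 TPM. The beta-catenin inhibitor ctnnbip1 averaged 190.5 ± 33.2 TPM. The gene ctnnbl1, whose protein is known mainly from pre-mRNA splicing, averaged 88.2 ± 23.1 TPM. Of the nuclear factors, tcf7l1a (headless, a repressor of Wnt targets) averaged 95.8 ± 22.2 TPM, lef1 (an activator) 48.6 ± 16.6 TPM, tcf7l1b 35.3 ± 7.97 TPM, tcf7 3.43 ± 3.50 TPM and tcf7l2 1.15 ± 0.499 TPM.

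Some members varied widely among controls. The 3 controls with high malat1 had 4.53 to 5.33 TPM of wnt5b, against 9.85 to 41.4 TPM in the 16 other controls. The same 3 had 5.84 to 9.15 TPM of lrp6 against 19.1 to 54.2 TPM, and 120 to 186 TPM of wnt8-2 against 40.9 to 103 TPM. They also lay below all other controls for ctnnb1 (504 to 637 TPM against 680 to 1308 TPM) and ctnnbip1 (125 to 157 against 164 to 253 TPM). So they did for ctnnbl1 (49.7 to 55.6 against 66.1 to 118 TPM) and tcf7l1b (23.3 to 28.8 against 31.5 to 58.05 TPM). The part of malat1 in this spread was not tested. Within the Cas7-11 controls at 10 pg, libraries 1 and 2 had 12 and 11.7 TPM of tcf7, and libraries 3 and 4 had 5.59 and 4.34 TPM.

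Across the 12 groups the 2 RfxCas13d knockdown groups often stood at opposite ends on the TPM scale. The mean of ctnnb1 was lowest in the knockdown at 50 pg, at 539 ± 114 TPM (n = 3), and highest in the knockdown at 10 pg, at 1275 ± 48.3 TPM (n = 2). The same 2 groups were lowest and highest for fzd7a (73.9 and 287 TPM), tcf7l1a (55.2 and 163 TPM), axin1 (26.1 and 46.2 TPM) and dvl2 (35.5 and 62.0 TPM). For wnt11f2 and dvl3a the knockdown at 50 pg was the highest group, at 269 ± 54.2 and 74.2 ± 20.9 TPM.

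The knockdown of GFP with RfxCas13d at 50 pg was the comparison in which the Wnt genes moved most. Of the 34 tested members 21 fell and 3 rose, but 1 of the 3, DVL1, entered the tests only because it was high in this knockdown group, so its rise is no finding. Of 15 receptor genes 10 fell, by 0.91 to 2.87 on the log2 scale, and fzd5 and fzd3b rose. All the Tcf and Lef genes but tcf7 fell, as did axin1, axin2, dvl2, ctnnb1, ctnnb2, ctnnbl1 and wnt5b, whereas tcf7, dvl3a, ctnnbip1, lrp5, lrp6 and wnt11f2 did not pass the test. This stands against a broad change of the transcriptome: 58.8% of the 16321 genes tested passed in this comparison, 28.8% lower and 30.0% higher. The members' median log2 fold change was -0.99, and that of all genes was 0.05. Of the tested members 20 had every knockdown library below every control and 3 (fzd5, fzd3b and DVL1) had every one above, where 24.8% and 28.0% of all genes did so. Calls are from edgeR's quasi-likelihood test on counts, at a Benjamini-Hochberg adjusted p below 0.05 across the whole table.

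**Figure D2:**
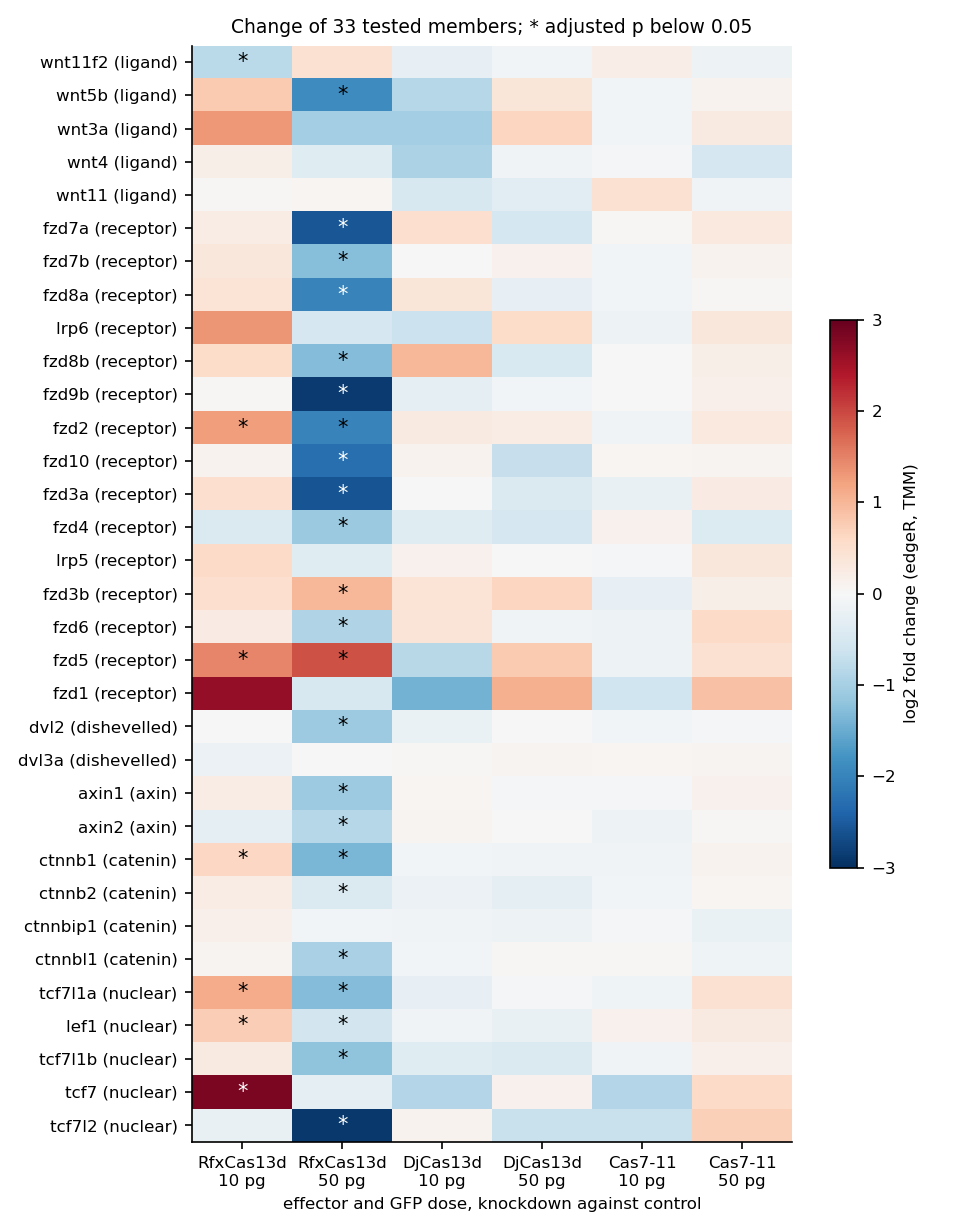
Log2 fold change of knockdown against control (colour; edgeR on TMM-scaled counts) for 33 tested members in the 6 effector and dose pairs, with an asterisk where the adjusted p was below 0.05; DVL1 is left out because its RfxCas13d controls at 50 pg held 2 reads. Asterisks stand in the 2 RfxCas13d columns. At 50 pg most of them mark lower members, and at 10 pg 6 mark higher members and 1 a lower member.

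Fold changes of a gene are given from counts scaled by TMM (trimmed mean of M values, which assumes that most genes keep their level) and expressed as CPM. The receptor with the smallest adjusted p was fzd9b, with 6.90, 2.91 and 2.59 CPM in the knockdown libraries, against 30.1, 31.8 and 28.2 CPM in the control libraries. No knockdown library came near the lowest control, and the log2 fold change was -2.87 ± 0.25 (SE, adjusted p = 1.23e-10).

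The abundant receptor fzd7a had 204, 41.6 and 59.8 CPM in knockdown libraries, against 725, 732 and 359 CPM in controls. Its log2 fold change was -2.57 ± 0.40 (adjusted p = 3.62e-06), and the arms did not overlap although both were spread. Its paralog fzd7b had 339.5, 139.9 and 156 CPM in knockdown libraries and 557, 591 and 395 CPM in controls. That is a log2 fold change of -1.28 ± 0.22 (adjusted p = 1.26e-05), and the arms were again apart on this scale. Its TPM arms overlapped, at 209.6, 115.7 and 121.9 in knockdown and 225.5, 252.9 and 208.6 in control libraries. In TPM, fzd7a averaged 73.9 ± 53.4 in knockdown and 285.5 ± 68.0 in control libraries (n = 3 each).

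Another receptor with a large fall was fzd3a, known for axon guidance in later stages, with 9.89, 11.1 and 1.62 CPM in knockdown and 51.8, 51.8 and 27.2 CPM in control libraries. It fell by 2.58 ± 0.42 on the log2 scale (adjusted p = 6.38e-06). The knockdown libraries all lay under the lowest control, and knockdown 3 was lowest by far. The genes fzd10, fzd8a, fzd2, fzd8b, fzd4 and fzd6 fell by 2.26, 2.0, 1.99, 1.31, 1.11 and 0.91 on the log2 scale. Of these, fzd8b alone had overlapping arms on the CPM scale, with 75, 13.8 and 20.2 CPM in knockdown libraries and 104, 114 and 51.5 CPM in controls. In fzd7a, fzd7b, fzd8a, fzd8b, fzd2, fzd10 and fzd9b knockdown 1 had the highest value of the 3 knockdown libraries.

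The receptors did not all go one way. The gene fzd5, which encodes a receptor known from eye development, had 4.2, 15.1 and 10.4 CPM in knockdown libraries, against 3.58, 2.83 and 1.29 CPM in controls. Its log2 fold change was 1.92 ± 0.40 (adjusted p = 1.44e-04), with no overlap but a small gap between the lowest knockdown and the highest control. The paralog of fzd3a, fzd3b, rose by 1.01 ± 0.41 (adjusted p = 0.0371), from few reads (109 in the knockdown and 45 in the control libraries). Without the libraries high in malat1, fzd3b was at 0.72 and its call was lost (adjusted p = 0.142).

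The co-receptors gave no call. The gene lrp5 had 25.2, 24.3 and 18.7 CPM in knockdown and 30.7, 30.6 and 26.9 CPM in control libraries (log2 fold change -0.37, adjusted p = 0.126), with the arms apart. The gene lrp6 had 39.3, 48.9 and 26.3 CPM in knockdown and 20.8, 46.1 and 95.9 CPM in control libraries, a range in controls that covers the whole knockdown arm. Without the libraries high in malat1, lrp6 passed at -0.92 (adjusted p = 0.00297). The receptor fzd1 had 4 reads in knockdown and 5 in control libraries, too few to show a difference at this depth.

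**Figure D3:**
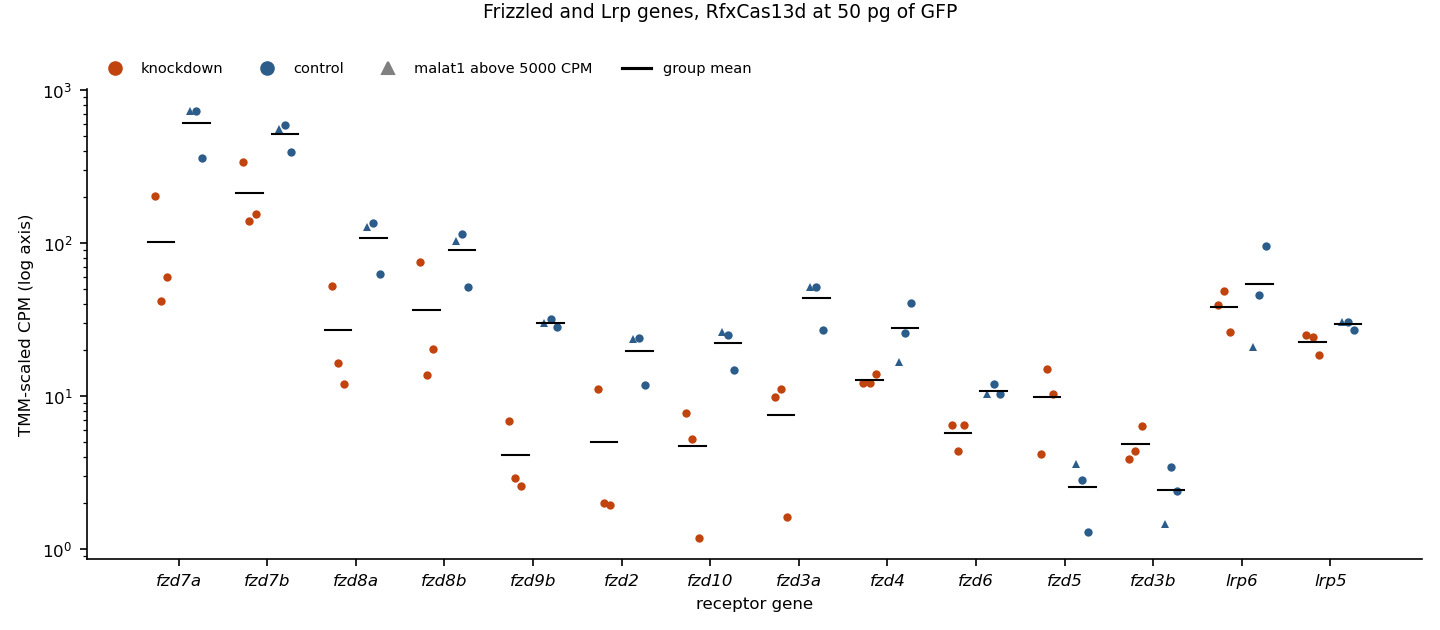
TMM-scaled CPM (log axis) of 14 receptor genes in the 3 knockdown and 3 control libraries of RfxCas13d at 50 pg; bars are group means and triangles mark the control high in malat1. fzd9b, fzd7a and fzd3a show knockdown points well under all controls, fzd5 and fzd3b above them, and lrp6 overlaps; fzd1 is left out because it holds 0 reads in 2 libraries.

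Of the nuclear factors, tcf7l2 had 1.5, 0.363 and 0 CPM in knockdown libraries and 6.17, 4.33 and 2.76 CPM in controls, from 12 reads against 82. It fell by 2.90 ± 0.72 on the log2 scale (adjusted p = 9.31e-04), and the arms were apart in CPM. In TPM they overlapped, with 1.74, 0.22 and 0 in knockdown and 1.75, 1.21 and 0.98 in control libraries. On log2(TPM + 1) tcf7l2 was at -0.62 with no call (limma, adjusted p = 0.0729). The repressor tcf7l1a had 93.1, 50.3 and 36.7 CPM in knockdown and 161, 175 and 106 CPM in control libraries, a log2 fold change of -1.30 ± 0.28 (adjusted p = 2.12e-04). Its paralog tcf7l1b had 37.5, 32.7 and 24.5 CPM in knockdown and 60.0, 78.9 and 77.5 CPM in control libraries, at -1.20 ± 0.18 (adjusted p = 1.71e-06). On this scale each knockdown library was under each control in both paralogs. On log2(TPM + 1), however, tcf7l1b was at -0.0345 (limma, adjusted p = 0.908), with overlapping arms of 29.0, 38.1 and 28.3 TPM in knockdown and 23.3, 33.2 and 43.5 TPM in control libraries.

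The activator lef1 was less clear. It had 39.6, 52.3 and 60.0 CPM in knockdown and 79.6, 92.2 and 52.4 CPM in control libraries, with overlap, and fell by 0.56 ± 0.21 (adjusted p = 0.0218). The call was lost when knockdown 1, knockdown 2, control 1 or control 2 was left out (adjusted p 0.0534 to 0.164). In TPM lef1 went the other way, with 39.1, 69.8 and 50.7 TPM in knockdown against 30.7, 40.1 and 29.3 TPM in control libraries. The remaining nuclear factor, tcf7, gave 26 reads in knockdown and 27 in control libraries and no call.

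Among the cytoplasmic members axin1 separated the arms most evenly, with 66.1, 54.5 and 65.6 CPM in knockdown and 137, 128 and 130 CPM in control libraries. It fell by 1.08 ± 0.11 (adjusted p = 1.09e-09). The target and scaffold axin2 had 52.6, 42.7 and 36.6 CPM in knockdown and 80.3, 69.4 and 89.4 CPM in control libraries, and fell by 0.86 ± 0.18 (adjusted p = 1.49e-04). On this scale the arms did not overlap in either gene. In TPM the arms of axin2 overlapped, at 20.7, 26.5 and 18.6 in knockdown and 17.9, 18.1 and 31.2 in control libraries. By library size alone axin2 was at -0.29 with no call (edgeR, adjusted p = 0.120), and limma on log2(TPM + 1) gave no call either.

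Beta-catenin RNA from ctnnb1 had 1299, 806 and 652 CPM in knockdown libraries, against 2242, 2650.1 and 2256 CPM in controls. It fell by 1.37 ± 0.18 (adjusted p = 1.13e-07), and knockdown 1 was the highest of its arm. The second beta-catenin gene, ctnnb2, had 1003, 814 and 765 CPM in knockdown and 1090.0, 1226 and 1185 CPM in control libraries. It fell by 0.44 ± 0.14 (adjusted p = 0.00640), with a narrow gap between the arms, and without knockdown 3 its adjusted p was 0.0544. The splicing-associated ctnnbl1 fell by 0.97 ± 0.17 (adjusted p = 1.38e-05). The inhibitor ctnnbip1 averaged 274 ± 35.9 CPM in knockdown and 289.6 ± 35.2 CPM in control libraries, with no call (adjusted p = 0.603).

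The Dishevelled genes did not change alike. The gene dvl2 had 107, 89.4 and 80.0 CPM in knockdown libraries, against 187, 192 and 209 CPM in controls, and fell by 1.09 ± 0.12 (adjusted p = 1.42e-08). On log2(TPM + 1) dvl2 was at -0.35 with no call (limma, adjusted p = 0.0689), and its TPM arms overlapped. Its relative dvl3a had 91.6, 117 and 101 CPM in knockdown and 101, 104 and 105 CPM in control libraries, and did not pass (adjusted p = 0.981). DVL1 gave 42 reads in the knockdown and 2 in the control libraries. After correction for library sizes that is a ratio of 17.9 with a 95% counting interval of 4.66 to 153 (an interval that covers counting error only). DVL1 passed the low count filter only through that knockdown group, so the ratio is a description.

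Of the ligands, wnt5b had 7.50, 6.54 and 1.19 CPM in knockdown and 8.29, 17.0 and 29.4 CPM in control libraries, and fell by 1.89 ± 0.46 (adjusted p = 9.77e-04). In CPM the lowest control, the one high in malat1, lay just above the highest knockdown. In TPM the arms overlapped, at 7.99, 7.20 and 1.51 in knockdown and 5.09, 9.85 and 21.9 in control libraries. On log2(TPM + 1) wnt5b was at -1.01 with no call (limma, adjusted p = 0.0694). With the malat1-high libraries left out, 24 members passed in edgeR, where 53.8% of all genes passed. Of the 24, 2 were higher, DVL1 among them, and 22 lower. There wnt5b was at -2.27 (adjusted p = 2.14e-05). The most abundant ligand, wnt11f2, had 321, 200.03 and 329 CPM in knockdown and 168, 162 and 291 CPM in control libraries. These arms overlapped, and the log2 fold change of 0.45 ± 0.21 missed the threshold (adjusted p = 0.0661). The minor ligands wnt3a, wnt4 and wnt11 had 4, 28 and 19 reads in knockdown and 7, 29 and 16 reads in control libraries, and none passed.

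The margin ligand was lower on the TPM scale. For wnt8-2 the knockdown libraries had 62.9, 19.9 and 28.3 TPM, against 186, 103 and 77.5 TPM in controls, with no overlap. Limma on log2(TPM + 1) gave -1.76 ± 0.44 (adjusted p = 0.00105), and -1.41 (adjusted p = 0.00158) without the libraries high in malat1. The difference from the DjCas13d response at 50 pg was -1.61 (adjusted p = 0.0434, and 0.0665 with no filter on low TPM, where the call is lost) and from the Cas7-11 response -2.07 (adjusted p = 0.00803). The difference from the RfxCas13d response at 10 pg was -1.29 with no call (limma, adjusted p = 0.122). It was -1.65 without the libraries high in malat1, which leaves 1 control at 10 pg. The overlapping wnt8a had 0, 13.4 and 9.08 TPM in knockdown and 0, 5.10 and 1.89 TPM in control libraries, with no call. The sum of the pair was 62.9, 33.4 and 37.4 TPM in knockdown and 186, 108 and 79.4 TPM in control libraries, with the arms apart. In bulk RNA of whole embryos, fewer cells of a kind and less RNA per cell cannot be told apart.

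**Figure D4:**
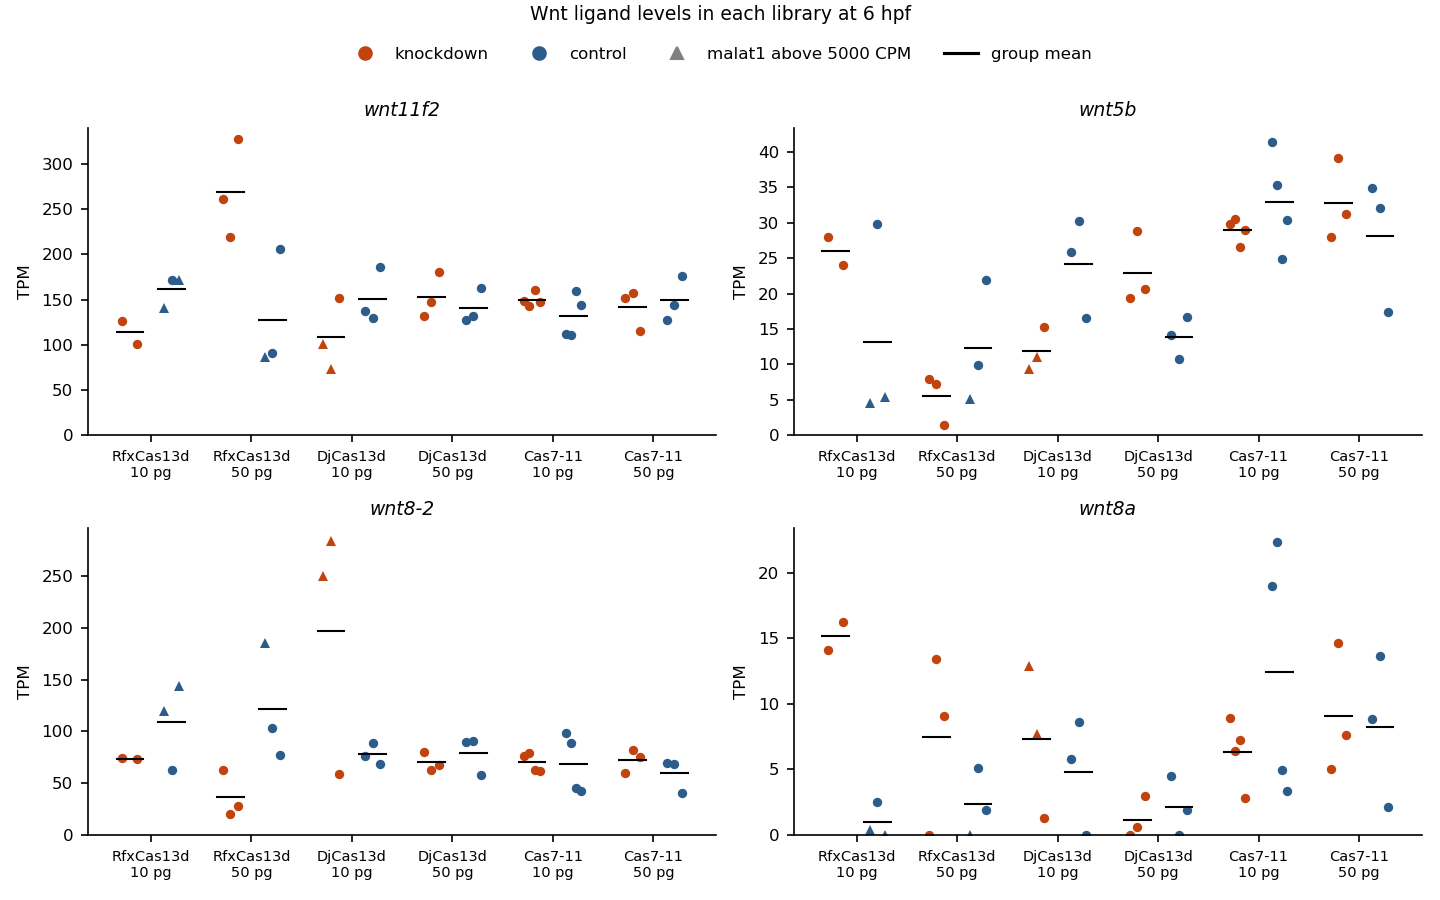
TPM of the 4 leading ligands in each of the 37 libraries, by effector and GFP dose, with knockdown left of control; bars are group means and triangles mark libraries with malat1 above 5000 CPM. wnt11f2 is highest and wnt8-2 lowest in the RfxCas13d knockdown at 50 pg, and wnt8-2 peaks in the 2 triangle libraries of the DjCas13d knockdown at 10 pg.

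The direction of these changes depends in part on the scale. In the knockdown libraries of RfxCas13d at 50 pg, scaling by library size alone moved the median of all genes to 0.64 and limma on log2(TPM + 1) moved it to 0.57, whereas it was at 0.05 with TMM. The TMM factors were 1.16, 1.40 and 1.42 in knockdown and 0.82, 0.84 and 0.97 in control libraries, which lowers every fold change beside library size alone. TMM assumes that most genes keep their level. With 58.8% of genes called, that assumption is in doubt here and was not tested. By library size alone 15 members fell and 6 rose, DVL1 among the 6, where 15.5% of all genes were lower and 45.2% higher (60.7% in all). On log2(TPM + 1) 11 of 35 members fell and 5 rose, where 12.7% of all genes were lower and 46.0% higher (58.7% in all). Of all calls, 51.1% were higher with TMM, 74.5% by library size alone and 78.3% on log2(TPM + 1). The genes axin1, ctnnb1, tcf7l1a, fzd7a, fzd7b, fzd8a, fzd9b, fzd2, fzd3a and fzd10 fell on all 3 scales, 7 of the 10 being receptors. Among them, axin1 was at -0.37 and ctnnb1 at -0.58 on log2(TPM + 1). The TPM arms of ctnnb1, fzd7b and fzd2 overlapped. Other members turned positive on both other scales: ctnnb2, lef1, ctnnbip1, dvl3a, tcf7, lrp5, lrp6 and wnt4. Of these ctnnbip1 and dvl3a were called higher on both, and lef1, called lower with TMM, was called higher on log2(TPM + 1) at 0.63 (adjusted p = 0.0162). On log2(TPM + 1) axin2 was at 0.00133. Relative to the median of all genes, 29 of the 34 members lay below it with TMM and with library size alone, and 28 of 35 on log2(TPM + 1). TMM and library size alone differ by nearly the same shift for every gene, so their equal counts are no separate check. For wnt11f2, 1.01 by library size and 1.17 on log2(TPM + 1) passed the threshold as higher.

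**Figure D5:**
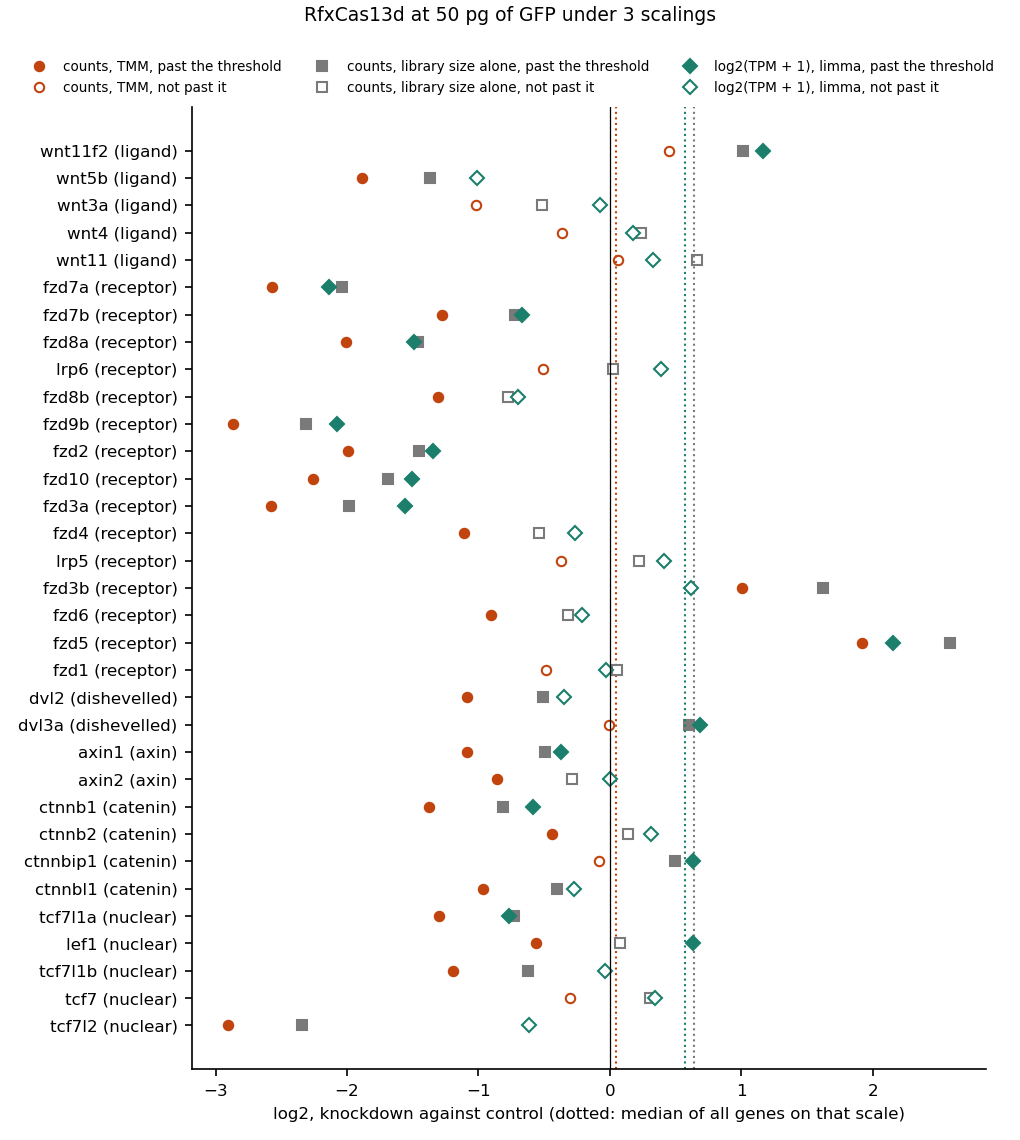
Log2 values of knockdown against control for RfxCas13d at 50 pg on 3 scales: TMM-scaled counts, counts scaled by library size alone, and log2(TPM + 1); filled symbols passed the threshold and dotted lines mark the median of all genes on each scale. The receptor genes fzd7a, fzd9b and fzd3a stay far left on every scale, while lef1 and ctnnb2 cross 0 and dvl3a and ctnnbip1 sit near the dotted lines.

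Other parts of the pathway were read from lists that share no gene with the members. Of 26 tested genes known as zygotic Wnt or beta-catenin targets, 18 fell and 6 rose in RfxCas13d knockdown libraries at 50 pg. For these lists as for the members, 28.8% of all tested genes were lower and 30.0% higher. The marginal genes tbx16 and eve1 fell by 1.27 ± 0.16 and 2.79 ± 0.28, and the cyclin gene ccnd1 by 2.24 ± 0.28, while the neural transcription factor gene her5 rose by 2.70 ± 0.23. Of 17 tested genes of Wnt secretion and extracellular control 10 fell and 3 rose. They included wls, which carries Wnt proteins to the cell surface, at -1.41 ± 0.18, the glypican gpc4 (knypek) at -1.66 ± 0.18 and the Dickkopf relative dkk3b at -2.56 ± 0.41. Among those that rose, gpc3 held 130 reads in knockdown and 1 in control libraries, too few in controls for a fold.

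Of 33 tested genes of the destruction complex and nuclear cofactors 14 fell and 8 rose. The kinase nlk1, which acts on Tcf factors, was at -1.25 ± 0.11, the beta-catenin antagonist cby1 at -1.45 ± 0.15, the casein kinase csnk1da at -0.91 ± 0.12 and the Groucho co-repressor tle2a at -1.18 ± 0.18. Of 24 tested planar cell polarity genes 8 fell and 3 rose, a share of lower genes near that of all genes. In that list rhoaa and rhoab, small GTPases of cell shape, were at -2.20 ± 0.22 and -1.92 ± 0.20, the polarity gene prickle1a at -2.44 ± 0.26, and the receptor kinase ROR1 rose by 2.43 ± 0.43. The lists' medians were -1.44 for targets, -1.27 for secretion, -0.24 for the destruction complex and 0.05 for polarity, beside 0.05 for all genes.

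Marker genes of other tissues and of egg RNA moved in the same libraries. Of 20 enveloping layer genes 17 fell and 1 rose, and their summed level was 5387 to 9052 TPM in knockdown and 10920 to 12917 TPM in control libraries. Of 15 tested yolk syncytial layer genes 10 fell and 2 rose, with sums of 2454 to 6272 TPM in knockdown and 6310.1 to 9137 TPM in control libraries. Of 18 maternal mRNAs 12 rose and 3 fell, with sums of 5278 to 7535 TPM in knockdown and 2386 to 3973 TPM in control libraries. No gene of the enveloping layer or maternal list was at 0 in all these libraries. The part of these shifts in the Wnt results was not tested.

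At 10 pg RfxCas13d gave a smaller and different picture. Of the 34 tested members 6 rose and 1 fell, where 14.0% of all tested genes passed (7.0% higher, 6.98% lower). The genes tcf7, tcf7l1a, lef1, fzd5, fzd2 and ctnnb1 rose, and wnt11f2 fell. The members' median was 0.26, and that of all genes was 0.01.

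The largest of these was tcf7, with 8.34 and 5.98 CPM in the knockdown libraries, against 0.277, 2.23 and 0.518 CPM in controls. It rose by 2.83 ± 0.63 (adjusted p = 0.00522), and the arms were apart. Its relative tcf7l1a had 283 and 221 CPM in knockdown and 97.1, 164 and 90.5 CPM in control libraries, and rose by 1.10 ± 0.30 (adjusted p = 0.0158). The activator lef1 had 96.2 and 103 CPM in knockdown and 55.3, 67.2 and 55.4 CPM in control libraries, and rose by 0.75 ± 0.23 (adjusted p = 0.0297).

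In these 3 nuclear factor genes control 2, the control without high malat1, was the nearest to the knockdown libraries. The receptor fzd2 had 28.4 and 28.8 CPM in knockdown and 11.3, 14.7 and 9.84 CPM in control libraries, a rise of 1.26 ± 0.42 (adjusted p = 0.0446). The receptor fzd5 had 5.15 and 3.81 CPM in knockdown and 1.25, 2.23 and 1.38 CPM in control libraries, and rose by 1.47 ± 0.47 (adjusted p = 0.0375). Beta-catenin RNA from ctnnb1 had 2602 and 2437 CPM in knockdown and 1492, 2006 and 1406 CPM in control libraries, and rose by 0.62 ± 0.19 (adjusted p = 0.0292).

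The ligand wnt11f2 had 160 and 135 CPM in knockdown and 265, 216 and 298 CPM in control libraries, and fell by 0.81 ± 0.24 (adjusted p = 0.0262). That call was made on TMM-scaled counts. By library size alone and in limma on log2(TPM + 1) no member was called lower, so the call was lost on those scales. In TPM, wnt8a had 14.1 and 16.2 in knockdown and 0.40, 2.54 and 0 in control libraries. On log2(TPM + 1) this was a rise of 3.24 ± 1.04 (limma, adjusted p = 0.0292), which was lost on log2(TPM + 0.1), at 0.0750, and without the malat1-high libraries, at 0.569. For wnt8-2 the knockdown libraries had 74.2 and 73.0 TPM and the controls 120, 62.5 and 144 TPM, with no call.

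The 10 pg calls changed when libraries were left out, while the fold changes kept their signs and in part became smaller. The knockdown libraries had 754 to 876 CPM of malat1 and 1.68% to 1.74% of gene reads from mitochondrial mRNAs, whereas controls 1 and 3, both high in malat1, had 6162 and 6356 CPM and 9.65% and 8.70%. Without these 2 controls and the other libraries high in malat1, 0 members passed in edgeR, where 0.00581% of all genes did, and 0 in limma on log2(TPM + 1), where 0.173% did; 1 control is then left and is assumed to vary like the other groups. With only the 5 libraries compared in the fit 0 passed as well, where 0.0% of all genes did, while limma with all libraries called 13 members higher (19.7% of all genes). Leaving out control 1, control 3 or knockdown 2 kept tcf7 alone. Leaving out knockdown 1 kept none, and leaving out control 2 gave 10 calls (shares of all genes are not given for these fits). Where calls were lost in this way, the log2 fold change was 0.53 to 0.67 for ctnnb1, 1.14 to 1.27 for fzd2, 0.70 to 0.80 for lef1, 0.92 to 1.28 for tcf7l1a, 1.24 to 1.67 for fzd5, -0.94 to -0.69 for wnt11f2, and 2.57 for tcf7 without knockdown 1. Without all libraries high in malat1 the values were smaller, at 0.33 for ctnnb1, 0.62 for tcf7l1a and 1.68 for tcf7, with the same signs for all 7 genes. Summed enveloping layer markers were at 15638 to 16059.8 TPM in knockdown and 10271 to 13324 TPM in control libraries, yolk syncytial layer markers at 8801 to 9734 TPM in knockdown and 7133 to 7541 TPM in control, and maternal mRNAs at 3343 to 3664 TPM in knockdown and 2938 to 3951 TPM in control. Of these lists 1 gene each fell and none rose. The part of malat1, mitochondrial RNA and these markers in the results was not tested. Of the lists above, where 7.0% of all genes were higher and 6.98% lower, 8 of the 24 polarity genes rose and none fell, among them scrib at 0.77 ± 0.17 and celsr2 at 1.63 ± 0.42, and of the 26 target genes 2 rose (her5 and tbx6) and 2 fell (ccnd1 and ved). Of 17 secretion genes 1 rose and 1 fell, and of 33 destruction complex and cofactor genes 3 rose and 1 fell.

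With DjCas13d and Cas7-11 no member passed at either dose. The all-gene shares called were 0.0% and 0.00613% with DjCas13d at 10 and 50 pg, and 0.0735% and 0.0613% with Cas7-11 at 10 and 50 pg, so few genes of any kind passed. At an unadjusted p below 0.05 the counts were 1, 3, 1 and 1 of the 34 members in that order, and 2553, 1528, 423 and 525 of the 16321 genes. DESeq2 called 0 members in each of the 4 comparisons, where it called 0.68%, 0.312%, 0.265% and 0.32% of the genes to which it gave an adjusted p. A p that misses the threshold does not show that levels were alike.

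The members that fell most evenly with RfxCas13d at 50 pg differed less in mean between arms with the other effectors. At 50 pg of DjCas13d, axin1 averaged 134 ± 6.17 CPM in knockdown and 138 ± 6.61 CPM in control libraries, and fzd9b 26.1 ± 4.36 and 27.7 ± 2.65 CPM. At 50 pg of Cas7-11, axin1 averaged 123 ± 6.20 CPM in knockdown and 112 ± 1.03 CPM in control libraries, and fzd9b 23.6 ± 3.69 and 21.0 ± 3.20 CPM (n = 3 for each group). There the axin1 arms were apart without a call, with 115, 127 and 125 CPM in knockdown above 111, 111 and 113 CPM in control libraries. For ctnnb1 the log2 fold changes were -0.11 ± 0.17 with DjCas13d and 0.12 ± 0.17 with Cas7-11 at 50 pg. In TPM, fzd7a averaged 195 ± 9.89 in knockdown and 246 ± 54.1 in control libraries of DjCas13d at 50 pg, and 252 ± 33.2 and 202 ± 37.5 with Cas7-11 at 50 pg.

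The smallest p-values among members in these comparisons were for fzd8b with DjCas13d at 10 pg (0.99 ± 0.44, adjusted p = 0.279), tcf7l1b with DjCas13d at 50 pg (-0.43 ± 0.18, adjusted p = 0.490), and tcf7 and fzd6 with Cas7-11 at 10 pg and 50 pg (-0.89 ± 0.41 and 0.56 ± 0.26, adjusted p of 0.999986 and 0.999523). The ligand wnt8-2 had 250.2 and 283.5 TPM in the 2 DjCas13d knockdown libraries at 10 pg that were high in malat1, and 58.7 TPM in the third, against 76.6, 88.8 and 68.8 TPM in controls. These 2 values were the highest of all 37 libraries, and limma on log2(TPM + 1) gave 1.04 (adjusted p = 0.227). Without the libraries high in malat1, which leaves 1 knockdown library that is assumed to vary like the other groups, wnt8-2 was at -0.40 (adjusted p = 1), and 0 members passed in edgeR, where 0.0% of all genes did, as in limma, where 0.0179% did. Wnt11f2 kept similar averages in both arms of both Cas7-11 doses, at 150 ± 7.30 TPM in knockdown and 132 ± 24.1 TPM in control at 10 pg (n = 4 each), and 141 ± 23.2 and 149 ± 24.9 TPM at 50 pg (n = 3 each).

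Differences between responses were tested directly. The 50 pg response to RfxCas13d was below the 10 pg response for 22 members and above it for 2, where 40.7% of all genes differed. The 5 nuclear factors were all among the 22, among them tcf7l1a at -2.40 ± 0.41 (adjusted p = 3.54e-05), along with 11 of 15 receptors, such as fzd2 at -3.25 ± 0.59 (adjusted p = 8.03e-05). A lower response is not always a fall at 50 pg: tcf7 gave no call there (-0.30, edgeR adjusted p = 0.699) and was at 2.83 at 10 pg. The 10 pg side of these differences includes controls high in malat1. Without the libraries high in malat1, 17 members were lower and 0 higher, where 25.2% of all genes differed. With all libraries the 2 members above were wnt11f2 at 1.27 ± 0.32 and DVL1, whose place in the test was set by its level in the 50 pg knockdown group.

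At 50 pg the RfxCas13d response was below the DjCas13d response for 15 members and above it for 0 (33.3% of all genes differed), and below the Cas7-11 response for 21 and above it for 2, DVL1 among them (45.3%). DVL1 was not left out of the edgeR counts that follow. Without the libraries high in malat1 the counts were 17 below and 0 above (31.8%), and 21 below and 2 above (42.2%). By library size alone they were 11 below and 3 above DjCas13d (35.8%), and 13 below and 6 above Cas7-11 (47.5%). On log2(TPM + 1) they were 9 below and 3 above (34.4%), and 11 below and 4 above (42.6%), and for the RfxCas13d doses the counts were 16 below and 3 above by library size alone (41.1%) and 14 below and 1 above on log2(TPM + 1) (38.4%). For fzd9b these differences were -2.78 ± 0.33 (adjusted p = 8.44e-07) and -3.03 ± 0.33 (adjusted p = 6.32e-08). For axin1 they were -1.04 ± 0.15 (adjusted p = 6.32e-06) and -1.22 ± 0.15 (adjusted p = 2.75e-07), and for ctnnb1 -1.26 ± 0.25 and -1.49 ± 0.25. These 3 tests of differences share the RfxCas13d libraries at 50 pg with the comparison above and with each other. Cas7-11 libraries were deeper than RfxCas13d libraries. Their controls at 50 pg also held less GFP (701.5 to 1329 TPM, against 4226 to 21930 TPM with RfxCas13d). Effector, depth and GFP level cannot be told apart there.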

How the data were processed

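RNA of whole embryos was sequenced from directional libraries, per the labels' protocols; the genome build was danRer11, per the submitters' processing notes, and for aligner, counter and strand setting the sources used here name none. The authors deposited raw read counts per gene, not normalized, and TPM values, which sum to the same total in each library; the 4 summary entries of the count tables held 17.3% to 26.4% of reads and were left out. Without a known strand setting, overlapping and antisense genes are uncertain. Symbols came from the deposited TPM tables, and members were joined to counts by Ensembl identifier.

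Counts were tested with edgeR 4.0.16 (R 4.3.3): filterByExpr on the 12 groups (16321 genes), TMM scaling, 1 robust quasi-likelihood fit of all 37 libraries with a coefficient per group, Benjamini-Hochberg adjustment over all genes, threshold 0.05, biological coefficient of variation 0.253. There were 9 contrasts: 6 of knockdown against control and 3 of differences. The SE given with an edgeR log2 fold change is approximate: it is the size of the fold change divided by the square root of the test's F statistic. For TPM, limma 3.58.1 was run on log2(TPM + 1) for genes with a mean of at least 0.5 TPM, which understates changes of low values. Alternatives were DESeq2 1.42.0, library size or RLE scaling, no filter, only the libraries compared, a replicate block, a pseudocount of 0.1, no libraries with malat1 above 5000 CPM, and each library left out. The fits were tested on simulated data. With 200 genes changed in each of the 6 knockdown comparisons, edgeR recovered 20% to 43.2% of 2-fold changes. It recovered 65.6% to 81.5% of 4-fold changes, and 1.98% to 8.16% of its calls were false. The simulated data held few changed genes (200 of 15308 for RfxCas13d at 50 pg), in both directions. In the real counts 58.8% of genes passed there, so these rates do not carry over to that comparison.

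Replicates differed by more than sampling noise in all 40 pairs (chi-square per degree of freedom 3.20 to 58.4). Same-numbered knockdown and control libraries deviated together (correlation above 0.1 in all pairs) only with Cas7-11 at 10 pg, where the 4 correlations were 0.28 to 0.51. These do not establish pairs by number. Knockdown 3 correlated at 0.29 with control 4 and 0.28 with control 3, and knockdown 4 at 0.45 with control 3 and 0.41 with control 4. Knockdown 1 correlated at 0.41 with control 2, so libraries 1 and 2 went together, as did 3 and 4. Elsewhere same-numbered libraries did not all deviate together. Members, lists and tests were chosen with earlier results of these data known. In each knockdown contrast the text names up to 4 members per role with the smallest adjusted p, fixed main members and the 3 most abundant per role, and up to 4 genes of each list; the 3 difference contrasts name up to 8. Members named outside this rule, such as fzd10, fzd2, fzd6 and fzd1, were chosen to account for counts.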

Additional observations from a re-analysis of the deposited data

Results flagged for a closer look

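Responses that differed between doses or effectors in a test of the difference itself, on the log2 scale, are given here for the 8 members with the smallest adjusted p in each comparison. For the RfxCas13d response at 50 pg against 10 pg these were axin1 at -1.32, ctnnb1 at -2.0, dvl2 at -1.09, fzd2 at -3.25, fzd8a at -2.42, fzd9b at -2.90, tcf7l1a at -2.40 and tcf7l1b at -1.48. In all 8 the 50 pg response was the lower, and all 8 belong to genes that fell at 50 pg.

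For the 50 pg response of RfxCas13d against DjCas13d they were axin1 at -1.04, ctnnb1 at -1.26, ctnnbl1 at -1.0, dvl2 at -1.07, fzd2 at -2.21, fzd7b at -1.41, fzd8a at -1.75 and fzd9b at -2.78. For RfxCas13d against Cas7-11 they were axin1 at -1.22, ctnnb1 at -1.49, dvl2 at -1.03, fzd10 at -2.33, fzd3a at -2.83, fzd7a at -2.87, fzd9b at -3.03 and tcf7l1b at -1.34. The genes axin1, ctnnb1, dvl2 and fzd9b stand in all 3 sets, which share the RfxCas13d libraries at 50 pg.

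In the 2 groups of 4 libraries, 22 members were examined for a library far from the other 3. The Cas7-11 knockdown at 10 pg had 1, with axin1 at 35.36 TPM in the lowest library. The other libraries of that group had 39.03, 38.86 and 38.57 TPM. Chance gives about 1 such case in 20 groups, and 22 members were looked at in each group, so this case is no finding.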

How the results depend on the processing

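The counts here show how calls depend on processing and are no result about the members. Shares of all genes are not given for each setting. Depending on the setting 28 to 55 members were tested, and edgeR and DESeq2 counts may include DVL1. The count of 24 members called with RfxCas13d at 50 pg stayed between 16 and 25 under the other settings, and between 21 and 24 when 1 library was left out. At 10 pg the count of 7 was 0 with the replicate block, 0 without the libraries high in malat1, 0 when only the libraries compared were fitted, 13, 12 and 12 in limma on TPM (pseudocount 1, pseudocount 0.1, no filter), 0 in limma without the malat1-high libraries (an alternative added after seeing the data), and 0 to 10 with 1 library left out. The replicate block changed no call of a member with Cas7-11 at 10 pg, where both fits gave 0. Elsewhere same-numbered libraries correlated at -0.231 to 0.193, and the block gave 25 members with RfxCas13d at 50 pg. With DjCas13d at 10 pg leaving out 1 library gave 0 to 2 members, the 2 being fzd8b and fzd4 without knockdown 3. With DjCas13d at 50 pg the count was 3 when only the libraries compared were fitted (tcf7l1b, fzd10 and lrp6), 1 in limma with no filter (WNT7A) and 0 with any 1 library left out, as it was for Cas7-11 at both doses. The differences gave 19 to 27 members between RfxCas13d doses, 12 to 19 against DjCas13d and 19 to 23 against Cas7-11 with 1 library left out. In limma the dose difference gave 15, 15 and, without the malat1-high libraries, 12 members, and the difference from Cas7-11 gave 15, 15 and 15. With RfxCas13d at 50 pg the sign turned under library size alone for ctnnb2 (0.14), ctnnbip1 (0.49), dvl3a (0.60) and lef1 (0.0755), and, with no call on either scale, for tcf7 (0.30), lrp5 (0.22), lrp6 (0.0276), wnt4 (0.24) and fzd1 (0.0567). It also turned, among members called on at least 1 scale, in limma with pseudocount 1, with and without the filter, with pseudocount 0.1, and without the malat1-high libraries: ctnnb2 (0.31, 0.31, 0.31, 0.15), ctnnbip1 (0.63, 0.63, 0.64, 0.44), dvl3a (0.69, 0.69, 0.70, 0.60), lef1 (0.63, 0.63, 0.64, 0.58) and, in the first 3, axin2 (0.00133, 0.00133, 0.00258). Under library size alone the turns follow from leaving out the TMM factors given above. On the TPM scale the cause was not tested, nor was which scale lies nearer to RNA levels in the embryos. Depth limits the members with few reads, such as fzd1, wnt3a and DVL1.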
